A study of Proteus anguinus with 14 samples.

Results

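The olm brain was compared with 5 other organs sampled from 3 animals, 2 of which gave a brain sample. The olm (Proteus anguinus) is a blind cave salamander. The brain is represented by 2 of 14 samples, from the animals p4 and p6, and both were chosen by the organ in the sample title. The other 12 samples were gut, heart and skin with 2 each and liver and lung with 3 each. All 3 animals (p4, p5 and p6) were uninfected controls of an infection study, were kept in the dark, and gave organs that were stored in RNAlater. The reference transcripts were assembled from p4 alone, from its short reads and from long reads of its pooled RNA, and no chromosome positions are given. Organs were taken from the titles because the tissue fields name heart for some gut samples, lung for some liver samples, and the reverse. Separate animals stand behind the 2 brain samples. The p-values rest on the spread within the brain pair and within the other 12 samples. The latter includes differences between the 5 other organs, so the p-values do not measure the spread between brain animals alone.

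Nervous tissue sends signals in 2 ways. Action potentials are carried along axons by voltage-gated channels and end in the release of small transmitters such as glutamate and GABA, and slower messages are sent by peptides that are cut from precursors and stored in dense granules. Around the neurons, astrocytes take up transmitters, oligodendrocytes wrap axons in myelin, ependymal cells line the ventricles, and a tight vessel wall controls what enters from the blood. The salamander brain keeps neural stem cells along its ventricles through life.

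Expression was given as TPM (transcripts scaled to a common total), a unit that corrects for transcript length and for the total of each sample, for 18924 assembled genes. Values were divided here by a scale per sample, 2.14 and 2.15 for the p4 and p6 brain samples and 0.519 to 1.46 for the others, and are called normalized TPM. Fold changes were computed from log2(normalized TPM + 1), which makes the change of low genes appear smaller, and SE is their standard error. In bulk tissue, fewer cells of a type and less RNA per cell cannot be told apart. The share of the 10 most abundant genes in all TPM was 12.8% for brain p4, 20.9% for brain p6 and 30.2% to 67.9% for the others. Counted reads cannot be recovered from TPM, so that depth is unknown and the spread between samples is the only measure of error.

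More genes were higher in brain than were lower. In the limma test of the 2 brain samples against the other 12, 1822 of 16317 tested genes were higher (11.2%) and 549 were lower (3.36%), at an adjusted p under 0.05 and a fold change above 2. Both brain samples lay above all the others for 1605 of the higher genes and below all the others for 496 of the lower, and over all tested genes such a gap was found for 13.1% above and 7.12% below. Taking 1 assembled gene per symbol, 12.8% of 6933 tested symbols were higher and 4.57% lower, which is the background for the gene lists below. The median log2 fold change of all tested genes was 0.04. Counts rested strongly on the p4 brain sample: without it 388 genes were higher and 13 lower, and without the p6 brain sample 1355 were higher and 296 lower. With 1 brain sample the filter on low values also removed genes found in brain alone, 284 of the 1822 without p4 and 282 without p6. Such genes entered the test only through their level in both brain samples, so their p-values add no support of their own. Of the genes named below these are ARC, CBLN4, CHRNB2, CNTNAP5, CSPG4, HTR1B, KISS1R, RAP1GAP, TXNRD1 and UNC80. C1QTNF4, CADM4 and KCNJ13 likewise needed a brain sample to pass the filter. Genes of this kind are still counted as called in the lists below and in the background share. A list count without a brain sample can fall because such genes were not tested there. It can also include members that were not called with both brain samples. Without the p6 brain and p6 heart samples together, 1269 were higher and 288 lower. A symbol was often shared by several assembled genes, and the most abundant of these stands for it here, so that reads may be divided among such copies.

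Genes that encode transmitter uptake, granule cargo and synaptic vesicle proteins marked the 2 samples as brain. SLC1A3, the glutamate transporter of astrocytes, reached 1218 normalized TPM in brain p4, 733 in brain p6 and 0.468 to 1.79 (median 0.854) in the other 12. VAMP2, which fuses vesicles with the membrane, stood at 720 and 431 against 1.14 to 6.37 (median 2.84). SYP, a protein of the vesicle wall, stood at 999 and 667 against 2.64 to 30.0 (median 5.44). SCG2, which belongs to the granins of secretory granules, had 1082 and 606 against 0.613 to 9.21 (median 3.41). No value of another organ came near the brain values for any of these 4 markers, and the p4 sample was the higher of the pair each time.

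Most genes higher in brain were not abundant. The mean brain level was under 5 normalized TPM for 506 of the 1822 genes, 5 to 20 for 624, 20 to 100 for 511 and at least 100 for 181. In every other sample, 274 of them were under 1 normalized TPM and 92 under 0.5, and 14 were listed at 0 throughout. RAP1GAP, which switches off the small GTPase RAP1 and was picked after its values were seen, was 1 of the 14, at 2.08 and 2.39 in brain. After brain, the next highest organ by its mean was heart for 460 of the higher genes, liver for 394, skin for 388, gut for 347 and lung for 233. Heart was thus next for 25.2% of the higher genes, against 20.4% of all tested genes with their highest non-brain level in heart. Symbols were attached to 1095 of the higher assembled genes, 636 had other annotation and 91 had none.

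**Figure D1:**
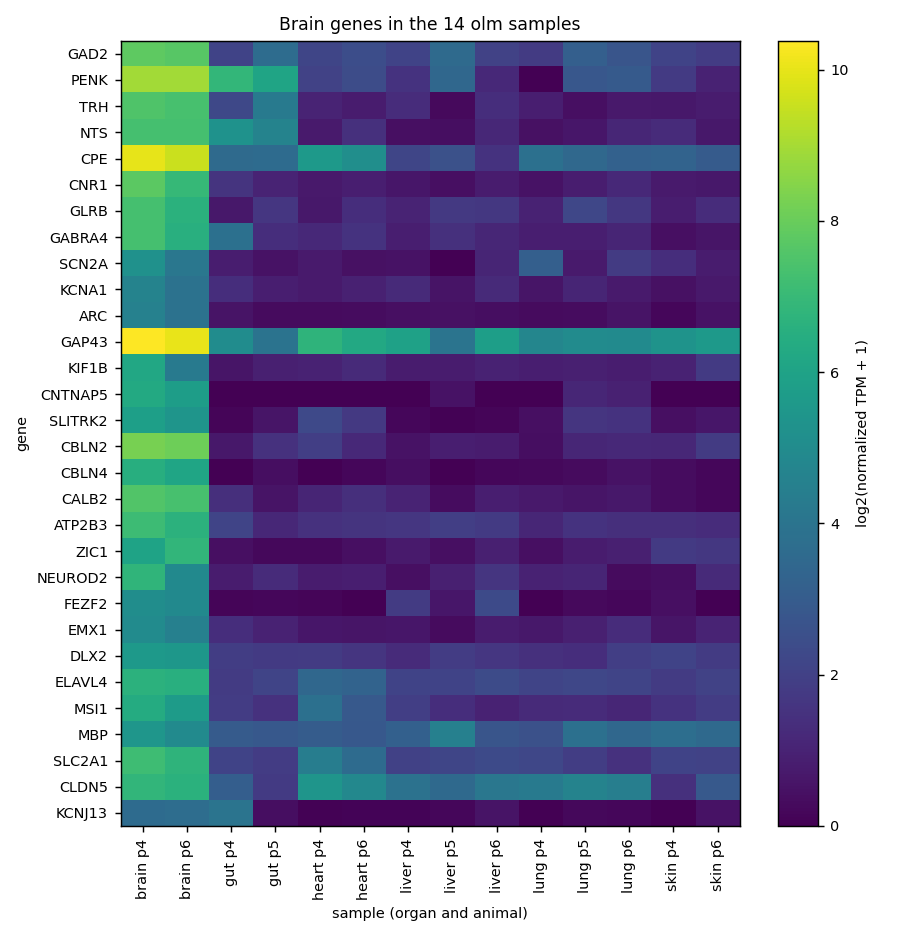
Levels of 30 brain genes, grouped by function, in each of the 14 samples, as log2(normalized TPM + 1), with 1 column per sample. The first columns are brain p4 and p6, which hold the highest values in every row but KCNJ13, where gut p4 reached 14.9 normalized TPM. PENK and NTS also show signal in gut, with 117 and 38.4 normalized TPM in gut p4.

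The GABA-making enzyme GAD2 was higher in brain. Among genes picked after their values were seen, SLC17A7 and SLC17A6 were low in both brain samples. GAD2, which makes GABA from glutamate, stood at 221 and 205 normalized TPM in brain and 2.49 to 11.8 (median 3.38) elsewhere (fold change 5.26 ± 0.46 SE on the log2 scale, adjusted p = 9.92e-07 from limma). The 2 brain samples agreed closely for GAD2 and did not overlap with any other sample. Of 37 listed genes of transmitter synthesis, loading and uptake, 17 were measured and 14 tested, of which 3 were higher and 1 lower (median log2 fold change 0.31). SRR, the 1 lower gene, makes D-serine, a co-agonist of NMDA receptors, and stood at 1.05 and 1.35 against 2.99 to 16.4 (log2 fold change -1.91, adjusted p = 0.0127 from limma, 0.28 without brain p4 and 0.08 without brain p6). SLC17A7 and SLC17A6, which load glutamate into vesicles and were picked after their values were seen, stood at 1.10 and 2.01, and at 1.12 and 3.04. Whether glutamate signalling was low in brain was not tested. CHAT and TH, which start the synthesis of acetylcholine and of dopamine, were also picked after that, at 1.95 and 3.62 and at 0.755 and 0.979, inside the range of the other organs for both. DAO, which breaks down D-amino acids, stood at 49.3 and 37.3 in brain and 26.3 to 195 elsewhere, so that the groups overlapped. AK1, an adenylate kinase of muscle and brain, stood at 3.08 and 22.1 against 0.143 to 104, with the highest value in skin p6.

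Neuropeptide precursors were strongly expressed in brain, and gut gave the next highest level for 3 of them. PENK, the precursor of enkephalins, stood at 487 and 490 normalized TPM in brain and 0 to 117 (median 3.73) elsewhere (fold change 6.26 ± 1.32 SE on the log2 scale, adjusted p = 0.00408 from limma, 0.12 without brain p4). TRH, the precursor of thyrotropin-releasing hormone, stood at 183 and 165 against 0.194 to 18 (fold change 6.22 ± 0.73 SE on the log2 scale, adjusted p = 2.1e-05 from limma). NTS, the precursor of neurotensin, stood at 157 and 158 against 0.307 to 38.4 (fold change 5.78 ± 1.09 SE on the log2 scale, adjusted p = 0.00178 from limma, 0.0714 without brain p4). Each of these 3 had its highest non-brain value in a gut sample, and the brain samples differed from each other by far less than from gut. Of 36 listed peptides and hormones 13 were measured and 9 tested, and 4 were higher. The median log2 fold change of the list was 1.85, with 0.68 without brain p4 and 2.43 without brain p6. Not all of these 4 calls held in either fit with a brain sample left out. NPPC, the precursor of C-type natriuretic peptide, was the fourth, at 45.6 and 54.1 against 2.63 to 19.1 (adjusted p = 0.00758 from limma, 0.139 without brain p4 and 0.0801 without brain p6), and was picked after its values were seen. AGRP, which drives feeding, stood at 23.4 in p4 and 0.329 in p6 and was not called with both brain samples. Its log2 fold change was 1.85, with -0.25 without brain p4 and 3.89 without brain p6.

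Genes that cut and store peptides were higher together. Of 16 listed genes 11 were measured, 10 tested and 7 higher (median log2 fold change 3.07, with 6 higher without brain p4 and 5 without brain p6). CHGB, a granin, stood at 1928 and 1215 normalized TPM in brain and at 0.681 to 230 elsewhere, with its maximum in lung p5 (adjusted p = 0.00293 from limma, 0.122 without brain p4). CPE, which trims peptide ends, stood at 1032 and 750 against 1.89 to 47.3 (fold change 6.36 ± 0.76 SE on the log2 scale, adjusted p = 2.75e-05 from limma). VGF, a growth-factor-induced granule protein picked after its values were seen, stood at 258 and 251 against 1.62 to 6.15. The brain values of all 3 lay above every other sample.

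Receptors for GABA, glycine and cannabinoids were among the 20 receptor genes that were higher in brain. Of 91 listed receptor genes 39 were measured and 32 tested, and none was lower (median log2 fold change 2.13, with 11 higher without brain p4 and 15 without brain p6). CNR1, the cannabinoid receptor that dampens transmitter release, stood at 217 and 123 normalized TPM in brain and 0.357 to 1.94 elsewhere (fold change 6.53 ± 0.29 SE on the log2 scale, adjusted p = 7.88e-10 from limma). GLRB, the shared subunit of glycine receptors, stood at 160 and 99.2 against 0.583 to 3.60 (fold change 5.67 ± 0.38 SE on the log2 scale, adjusted p = 4.71e-08 from limma). GABRA4, a subunit of GABA-A receptors, stood at 158 and 92.8 against 0.354 to 13.2 (fold change 5.67 ± 0.61 SE on the log2 scale, adjusted p = 7.83e-06 from limma). All 3 were free of overlap. Lower on the scale and also picked after their values were seen were CHRNB2, a nicotinic receptor subunit, at 27.7 and 16.9, HTR1B, a serotonin receptor, at 7.59 and 3.87, and KISS1R, the kisspeptin receptor, at 12.7 and 9.98. None of these 3 reached 0.5 normalized TPM in any other sample, so all 3 entered the test only through their brain level.

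Sodium and potassium channels and a leak channel subunit were among the channel genes higher in brain. Of 64 listed voltage-gated channels and their partners 31 were measured, 25 tested and 10 higher (median log2 fold change 0.79, with 3 higher without brain p4 and 5 without brain p6). UNC80, a part of the sodium leak channel complex that sets resting excitability, stood at 24.6 and 8.97 normalized TPM in brain and 0.159 to 0.839 elsewhere (fold change 3.45 ± 0.28 SE on the log2 scale). No p-value is given for UNC80, which entered the test only through its brain level. SCN2B, an auxiliary sodium channel subunit, had the highest brain level of those named, 449 and 234 against 14.8 to 156, and was not called (adjusted p = 0.0592 from limma). The axonal sodium channel SCN2A stood at 37.1 and 16.3 against 0 to 7.83, and the potassium channel KCNA1 at 23.8 and 14.2 against 0.384 to 1.53. In the postsynaptic list 18 of 28 genes were measured, 17 tested and 6 higher (median 1.22, with 2 higher without brain p4 and 4 without brain p6). ARC, an immediate early gene of active synapses, stood at 22.7 and 14.0 against 0.149 to 0.475 (fold change 3.85 ± 0.18 SE on the log2 scale). Since ARC entered the test only through its brain level, its p-value is not given. GPHN, which anchors inhibitory receptors and is also used outside the brain, stood at 78.2 and 76.9, inside the range of 49.6 to 131 elsewhere.

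Growth cone and axonal transport genes were higher in brain. Of 47 listed genes 20 were measured and tested, and 11 were higher (median log2 fold change 1.92, with 6 higher without brain p4 and 9 without brain p6). GAP43, a membrane protein of growing axons, stood at 1333 and 1044 normalized TPM in brain and 14.7 to 108 (median 35.3) elsewhere (fold change 4.91 ± 0.58 SE on the log2 scale, adjusted p = 2.38e-05 from limma). FEZ1, an adaptor of kinesin transport, stood at 334 and 255 against 7.22 to 51.5. KIF1B, a kinesin motor, stood at 74.6 and 18.5 against 0.511 to 2.38 (fold change 4.29 ± 0.37 SE on the log2 scale, adjusted p = 7.83e-07 from limma), and its p4 value was several times its p6 value. TUBA3D, an alpha-tubulin whose reads may be shared with near-identical tubulin genes, stood at 727 and 636 against 74.3 to 223. Both brain samples exceeded every other sample for all 4 genes.

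Adhesion and guidance molecules formed the longest list, which held the most genes higher in brain. By share of tested genes the lists of peptide processing (7 of 10), neural matrix (8 of 12) and transmitter receptors (20 of 32) stood above it. Of 121 listed genes 62 were measured and 57 tested, of which 35 were higher and none lower (median log2 fold change 2.44, with 17 higher without brain p4 and 24 without brain p6). CNTNAP5, a relative of the proteins that hold axon and glia together, stood at 78.7 and 54.3 normalized TPM in brain and 0 to 1.14 elsewhere (fold change 5.84 ± 0.31 SE on the log2 scale). No p-value is given for CNTNAP5, which entered the test only through its brain level. SLITRK2, which organizes synapses, stood at 57.7 and 41.7 against 0.055 to 3.90 (fold change 4.83 ± 0.53 SE on the log2 scale, adjusted p = 1.03e-05 from limma). CADM3, a synaptic cell adhesion molecule, stood at 157 and 123 against 7.53 to 14.5, and CADM1 of the same family at 190 and 112 against 8.05 to 29.3. The brain samples lay apart from all others in each case.

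Secreted organizers of synapses were far higher in brain. In the list of neural matrix genes 14 of 35 were measured, 12 tested and 8 higher (median log2 fold change 2.82, with 7 higher without brain p4 and 6 without brain p6). CBLN2, a cerebellin that bridges neurexins and postsynaptic receptors, stood at 301 and 273 normalized TPM in brain and 0.290 to 2.76 elsewhere (fold change 7.08 ± 0.36 SE on the log2 scale, adjusted p = 3.1e-09 from limma). CBLN4 of the same family stood at 89.3 and 68.6 and stayed under 0.44 in all other samples (fold change 6.08 ± 0.19 SE on the log2 scale). CBLN4 entered the test only through its brain level, so its p-value is not given. C1QTNF4, a secreted protein with C1q domains like the cerebellins, stood at 401 and 264 against 0 to 1.26. All 3 secreted proteins were separated from the other organs by wide gaps.

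Calcium buffers, calcium pumps and kinases were among the signalling genes higher in brain. Of 82 listed genes 37 were measured, 32 tested and 17 higher (median log2 fold change 1.39, with 8 higher without brain p4 and 13 without brain p6). CALB2, the calcium buffer calretinin, stood at 186 and 165 normalized TPM in brain and 0.128 to 1.63 elsewhere (fold change 6.70 ± 0.31 SE on the log2 scale, adjusted p = 1.34e-09 from limma). ATP2B3, a pump that returns calcium out of the cell, stood at 137 and 99.5 against 1.17 to 3.39 (fold change 5.34 ± 0.27 SE on the log2 scale, adjusted p = 3.1e-09 from limma). CDK5R2, an activator of the neuronal kinase CDK5, stood at 310 and 187 against 0.219 to 2.18. CAMK2B, a calcium-dependent kinase of synapses that muscle also uses, stood at 361 and 207 against 1.90 to 86.1, with its maximum in skin p6 (fold change 4.05 ± 0.98 SE on the log2 scale, adjusted p = 0.0102 from limma, 0.277 without brain p4 and 0.0552 without brain p6).

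Transcription factors of the forebrain were among the genes higher in brain. Of 63 listed forebrain and midbrain factors 32 were measured, 29 tested and 16 higher (median log2 fold change 2.44, with 12 higher without brain p4 and 13 without brain p6). ZIC1, a zinc finger factor of the dorsal brain, stood at 64.8 and 113 normalized TPM in brain and 0.154 to 2.40 elsewhere (fold change 5.69 ± 0.39 SE on the log2 scale, adjusted p = 6.69e-08 from limma). NEUROD2, a factor of maturing excitatory neurons, stood at 109 and 29.3 against 0.224 to 2.04 (fold change 4.96 ± 0.40 SE on the log2 scale, adjusted p = 3.35e-07 from limma). FEZF2, a forebrain factor, stood at 32.8 and 29.1 against 0 to 4.07 (fold change 4.49 ± 0.52 SE on the log2 scale, adjusted p = 1.82e-05 from limma). ZIC1 was higher in p6 and NEUROD2 in p4, so that the 2 brain samples differed in opposite directions. Factors of both divisions of the telencephalon, picked after their values were seen, were found: EMX1 and TBR1 of the pallium stood at 31.3 and 21.7 and at 22.8 and 12.8, and DLX2 of the subpallium at 47.3 and 44.5. NKX2-1, a factor of the ventral forebrain, the thyroid and the lung that was also picked after its values were seen, was listed at 0 in both brain samples and reached 11.0 in lung p4.

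HOX genes, which mark position along the hindbrain and trunk, gave 2 genes lower in brain. Of 39 listed HOX genes 14 were measured and 12 tested, with 0 higher and 2 lower, and their median log2 fold change was -0.99 (-0.62 with TPM as deposited, where the median of all genes was 0.97). HOXB4 stood at 0.878 and 0.840 normalized TPM in brain and 1.91 to 15.6 elsewhere (fold change -2.0 ± 0.53 SE on the log2 scale, adjusted p = 0.0165 from limma, 0.27 without brain p4 and 0.117 without brain p6). HOXC4 stood at 4.85 and 10.3 against 9.20 to 26.5, with overlap, and had a log2 fold change of -1.04 that turned to 0.14 with TPM as deposited (SE 0.33, adjusted p = 0.0433 from limma, 0.758 without brain p4). Its call was also lost without gut p5, liver p4, liver p6, skin p6, either heart sample or any lung sample, with adjusted p from 0.0451 to 0.0607, the lowest of these without heart p6, where the log2 fold change was -0.98. HOXC10 was in the range of the other organs in p4 and above it in p6, at 4.48 and 8.36 against 0.889 to 6.51.

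Genes of neural stem cells, young neurons and neuronal RNA handling were among those higher in brain. Of 47 listed genes of stem cells and young neurons 23 were measured, 22 tested and 7 higher (median log2 fold change 1.57, with 3 higher without brain p4 and 5 without brain p6). MSI1, an RNA-binding protein of neural progenitors, stood at 82.3 and 50.8 normalized TPM in brain and 0.994 to 13.3 elsewhere (fold change 4.26 ± 0.58 SE on the log2 scale, adjusted p = 9.23e-05 from limma). MYT1L, which holds neurons in their neuronal state, stood at 47.6 and 27.0 against 0.983 to 2.64, and ID4, an inhibitor of differentiation factors, at 431 and 473 against 26.5 to 171 (adjusted p = 0.00312 from limma, 0.094 without brain p4). ELAVL4, a neuronal RNA-binding protein, stood at 100 and 92.7 against 2.50 to 9.95 (fold change 4.30 ± 0.39 SE on the log2 scale, adjusted p = 1.23e-06 from limma). In the RNA-binding and chromatin list 16 of 36 genes were measured, 15 tested and 9 higher (median 1.56, with 5 higher without brain p4 and 7 without brain p6). The cell cycle list of 30 genes had 19 measured, 14 tested and 1 higher, a smaller share than the 12.8% of all tested symbols. That gene was the mitotic cyclin CCNB1, at 10.4 and 16.6 against 0 to 6.89 (log2 fold change 2.59, adjusted p = 0.0274 from limma). CCNB1 was not called when either brain sample was left out (log2 fold change 2.87 without brain p4 and 2.24 without brain p6).

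**Figure D2:**
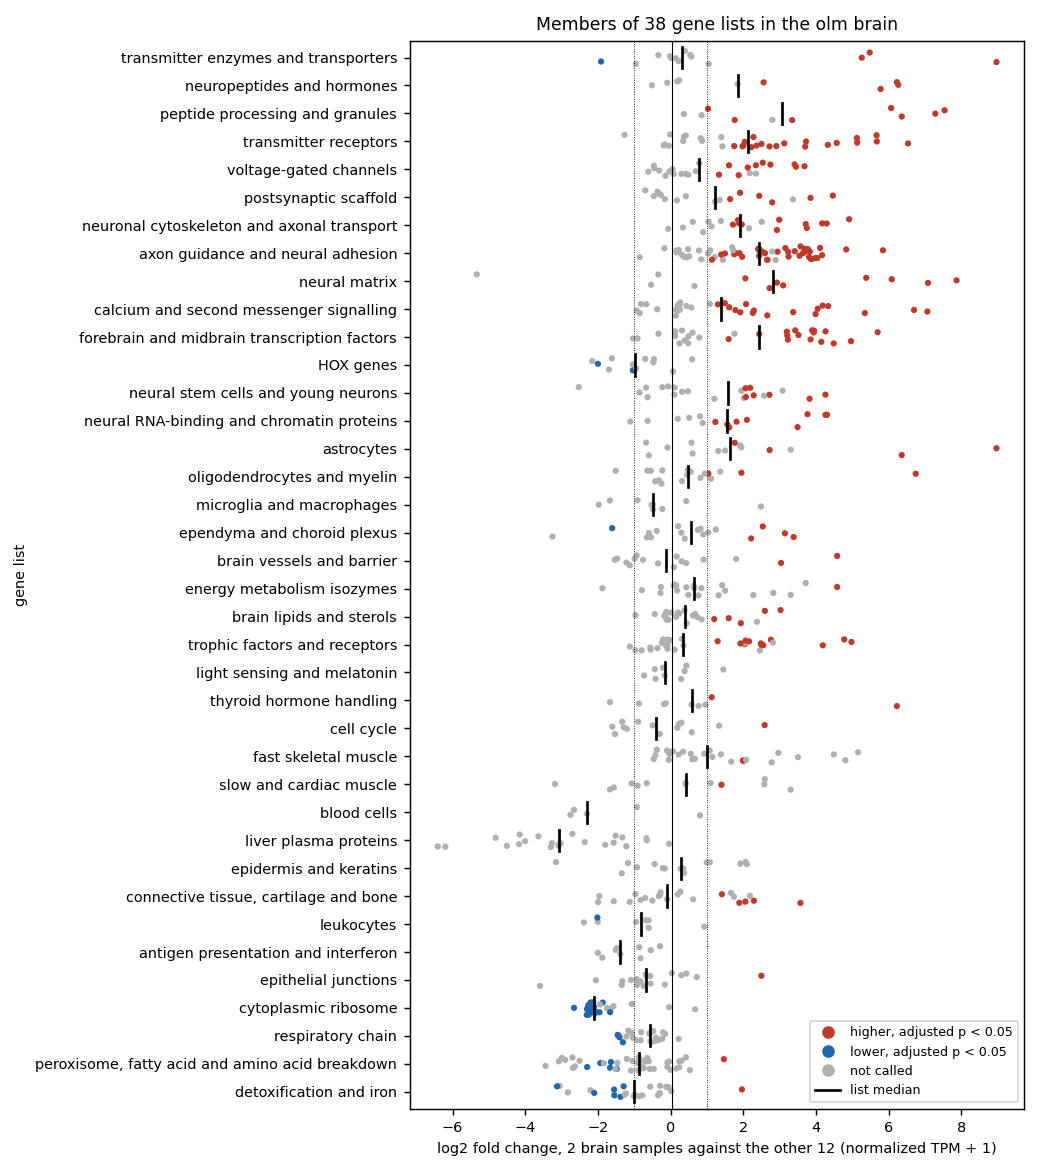
Log2 fold change of brain against the other 12 samples for the tested members of 38 gene lists, 1 point per gene, red where higher and blue where lower at an adjusted p under 0.05 and a fold change above 2, with a black bar at each list median. Points lie mostly right of 0 in the neuronal lists, with a median of 3.07 for peptide processing, and left of 0 in the ribosome list, with a median of -2.11.

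Glial and supporting cells were represented unevenly. Of 30 listed astrocyte genes 14 were measured and tested and 4 were higher, namely SLC1A3, CPE, SPARCL1 and PLTP. The median log2 fold change of the list was 1.63, with 1.53 without brain p4 and 1.73 without brain p6. Not all of these 4 calls held in either fit with a brain sample left out. PLTP, a phospholipid carrier named to complete the 4, stood at 218 and 220 against 28.5 to 120 (adjusted p = 0.016 from limma, 0.265 without brain p4 and 0.111 without brain p6). SPARCL1, a secreted matrix protein, stood at 5.78 and 19.6 normalized TPM in brain and 0.249 to 4.82 elsewhere, and was not called without brain p6 (adjusted p = 0.131). AQP4, the water channel of astrocyte endfeet picked after its values were seen, stood at 8.34 and 16.5 against 10.8 to 37.9. In the list of oligodendrocytes and myelin 23 of 40 genes were measured, 18 tested and 3 higher, a share near the 12.8% of all tested symbols. The list median was 0.46, with 0.28 without brain p4 and 0.18 without brain p6. MBP, a major myelin protein, stood at 43.0 and 30.7 against 4.97 to 22.2 (fold change 1.95 ± 0.42 SE on the log2 scale, adjusted p = 0.0045 from limma, 0.195 without brain p4). GPM6A, a neuronal relative of the myelin proteolipid, stood at 773 and 334 against 1.84 to 5.34 (fold change 6.74 ± 0.34 SE on the log2 scale, adjusted p = 2.78e-09 from limma). CSPG4, a marker of oligodendrocyte precursors, was the remaining higher gene, at 1.87 and 1.08 against 0 to 0.749 (log2 fold change 1.04, and 0.99 without heart p4). CSPG4 entered the test only through its brain level. MOG and CLDN11, further members of the myelin list picked after their values were seen, stood at 32.2 and 32.5 and at 16.9 and 17.2, within the range of other organs. The assembled gene under the MOG symbol was highest in skin, at 609 in skin p4 and 212 in skin p6.

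Of 31 listed genes of microglia and macrophages 10 were measured and 9 tested, and none was called (median log2 fold change -0.49, and 0.60 with TPM as deposited). AIF1, a protein of phagocytes, stood at 40.4 and 39.1 normalized TPM in brain and 11.9 to 335 elsewhere, and C1QA, a complement subunit, at 49.9 and 25.5 against 0 to 47.4. Both overlapped with other organs. In the list of ependyma and choroid plexus 22 of 38 genes were measured, 18 tested, 4 higher and 1 lower (median 0.57, with 1 higher when either brain sample was left out). KCNJ13, a potassium channel of choroid plexus, stood at 11.4 and 12.1 against 0 to 14.9, with the highest value in gut p4. Its fold change was 3.14 ± 0.74 SE on the log2 scale, and it was not called when either brain sample was left out. No p-value is given for KCNJ13, which needed a brain sample to enter the test. RFX4, a cilia and neural tube factor, stood at 11.1 and 7.63 against 0.157 to 2.31, and TPPP3, a tubulin-binding protein of ciliated cells, at 193 and 147 against 1.74 to 40.6 (adjusted p = 0.009 from limma, 0.229 without brain p4 and 0.0593 without brain p6). DNAH11, a dynein of motile cilia and the 1 lower gene, stood at 7.38 and 4.89 against 14.1 to 30.9, and was 1 of 6 assembled genes with that symbol. Its log2 fold change of -1.61 became -0.43 with TPM as deposited, where it was not called (adjusted p = 0.379 from limma).

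The vessel and energy lists held no larger share of higher genes than the 12.8% of all tested symbols, and SLC2A1 was a higher gene of both. SLC2A1, the glucose transporter of the barrier endothelium, stood at 140 and 105 normalized TPM in brain and 1.83 to 20.4 (median 3.23) elsewhere (fold change 4.58 ± 0.57 SE on the log2 scale, adjusted p = 4e-05 from limma). CLDN5, the tight junction protein of that endothelium, stood at 113 and 98.4 against 1.69 to 41.2 (fold change 3.04 ± 0.81 SE on the log2 scale, adjusted p = 0.0171 from limma, 0.292 without brain p4 and 0.0995 without brain p6). These were the 2 higher of 16 tested vessel genes (32 listed, 19 measured, median -0.13, and 0.78 with TPM as deposited). In the energy list 22 of 40 genes were measured and tested and SLC2A1 alone was higher (median 0.64). CKB, the creatine kinase of brain and gut, stood at 1485 and 1359 against 215 to 3653, with both gut samples above brain. Among brain lipids 24 of 48 genes were measured, 23 tested and 5 higher (median 0.38, with 2 higher without brain p4 and 4 without brain p6). ST8SIA1, which makes the ganglioside GD3, stood at 19.0 and 15.2 against 0.404 to 3.76 (fold change 3.02 ± 0.44 SE on the log2 scale, adjusted p = 0.00017 from limma), and ST3GAL2, another sialyltransferase of gangliosides, at 53.5 and 26.0 against 2.54 to 8.45.

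The list of trophic factors and receptors gave a mixed picture, and its higher genes included neuronal genes of other kinds. Of 61 listed genes 36 were measured, 32 tested and 12 higher (median log2 fold change 0.33, with 3 higher without brain p4 and 6 without brain p6). SNCB, a synuclein of nerve endings, stood at 497 and 406 normalized TPM in brain and 3.17 to 119 elsewhere (fold change 4.97 ± 0.91 SE on the log2 scale, adjusted p = 0.00138 from limma, 0.0721 without brain p4). FGF14, an intracellular regulator of sodium channels, stood at 56.9 and 27.3 against 0.674 to 1.78 (fold change 4.19 ± 0.27 SE on the log2 scale, adjusted p = 4.11e-08 from limma). The olm stays aquatic and keeps larval traits through life, and has reduced eyes. Of 54 listed genes of light sensing and melatonin 11 were measured and 9 tested, and none was called (median -0.16, and 0.74 with TPM as deposited). MTNR1A, a melatonin receptor, stood at 16.2 and 12.6 in brain and 1.20 to 36.7 elsewhere. In the thyroid hormone list 10 of 21 genes were measured, 9 tested and 2 higher, TRH among them (median 0.58, with 1 higher when either brain sample was left out).

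Genes of protein synthesis were the clearest group among those lower in brain. Of 78 listed cytoplasmic ribosomal proteins 30 were measured and 25 tested, and 18 were lower and 0 higher (median log2 fold change -2.11, with 0 lower without brain p4 and 18 without brain p6). RPL11, a protein of the large ribosomal subunit, stood at 1141 and 1952 normalized TPM in brain and 4809 to 17379 (median 8736) elsewhere (fold change -2.66 ± 0.42 SE on the log2 scale, adjusted p = 0.000402 from limma, 0.0539 without brain p4). TPT1, a translation-linked tumor protein, stood at 1075 and 2146 against 3317 to 20488 (fold change -2.58 ± 0.54 SE on the log2 scale, adjusted p = 0.00359 from limma, 0.224 without brain p4). The brain samples lay below every other sample for both genes, and p4 was the lowest of all 14. EEF1A1, EEF1G and NACA, an elongation factor, a subunit of its exchange factor and a ribosome-bound chaperone picked after their values were seen, stood at 3876 and 6561, at 1199 and 1633, and at 180 and 379, each below all other samples. The listed ribosomal genes together held 2.93% and 4.29% of all TPM in brain and 4.75% to 12.4% in the others. The size of this difference depended on the scaling: the list median was -1.19 after quantile normalization and -0.80 with TPM as deposited, where 2 genes were lower, 2 higher and the median of all genes was 0.97. RPL3, picked after its values were seen, stood at 58.7 and 50.4 against 41.2 to 64.4.

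**Figure D3:**
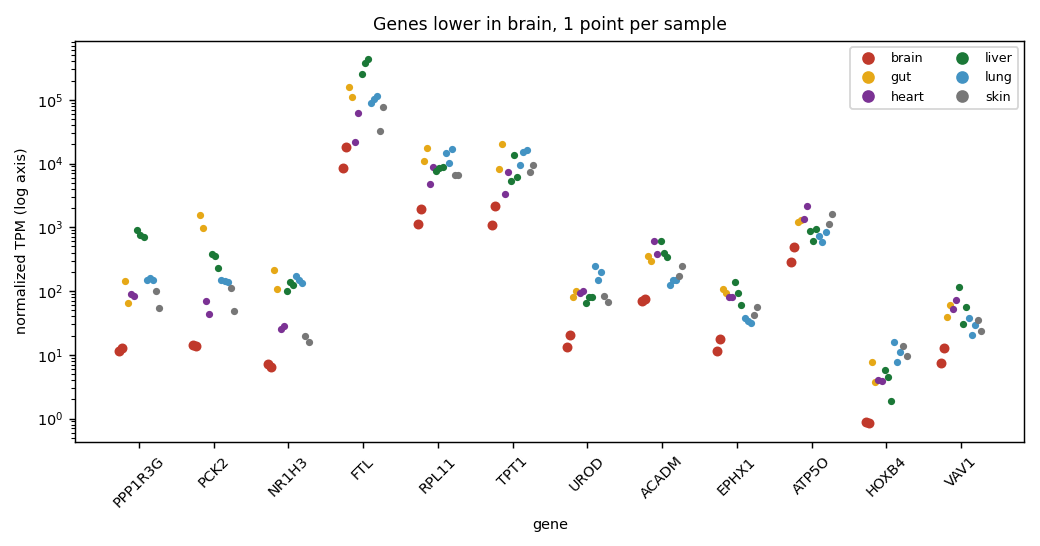
Normalized TPM on a log axis of 12 genes called lower in brain, 1 point per sample, with brain in red and slightly larger. The 2 brain points form the bottom of each column, for example at 11.6 and 13 for PPP1R3G against 55.0 to 907 in the other samples.

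PPP1R3G, PCK2, FBP1 and NR1H3 were among the genes with the largest negative fold changes in brain. PPP1R3G, which steers glycogen synthesis, stood at 11.6 and 13 normalized TPM in brain and 55.0 to 907 (median 145) elsewhere (fold change -3.70 ± 0.94 SE on the log2 scale, adjusted p = 0.0128 from limma, 0.26 without brain p4 and 0.0894 without brain p6). PCK2, an enzyme of glucose synthesis in mitochondria, stood at 14.4 and 13.7 against 43.5 to 1534 (fold change -3.67 ± 1.05 SE on the log2 scale, adjusted p = 0.0259 from limma, 0.326 without brain p4 and 0.15 without brain p6). FBP1, the fructose bisphosphatase of the same route, stood at 0.774 and 0.254 against 0.810 to 39.2 (adjusted p = 0.03 from limma, 0.297 without brain p4, 0.201 without brain p6 and 0.0595 with the animal as a block). NR1H3, a nuclear receptor for oxysterols, stood at 7.11 and 6.50 against 15.6 to 211 (adjusted p = 0.0187 from limma, 0.277 without brain p4 and 0.129 without brain p6). The 2 brain samples were close to each other for PPP1R3G, PCK2 and NR1H3, and the spread lay among the other organs.

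FTL and UROD were also among the genes with the largest negative fold changes, and EPHX1 was a lower gene of the detoxification and iron list. FTL, the light chain of ferritin, stood at 8359 and 18469 normalized TPM in brain and 21908 to 436961 elsewhere, with a log2 fold change of -3.13 that turned to 0.087 after quantile normalization (SE 0.87, adjusted p = 0.0228 from limma, 0.463 without brain p4 and 0.0685 without brain p6). UROD, an enzyme of heme synthesis, stood at 13.5 and 20.4 against 66.0 to 244 (fold change -2.55 ± 0.44 SE on the log2 scale, adjusted p = 0.000827 from limma, 0.0788 without brain p4). EPHX1, which opens epoxides of foreign compounds, stood at 11.3 and 17.5 against 31.9 to 138 (adjusted p = 0.00781 from limma, 0.281 without brain p4). In normalized TPM, no brain value reached the lowest other sample in these 3 genes. EPHX1 was not called with TPM as deposited (log2 fold change -0.86, adjusted p = 0.303 from limma). Of 50 listed genes of detoxification and iron 27 were measured, 24 tested, 6 lower and 1 higher (median log2 fold change -1.0 and 0.07 with TPM as deposited, with 0 lower without brain p4 and 3 without brain p6). GPX3, a secreted peroxidase and an abundant member of the list, stood at 818 and 524 against 48 to 2948 and was not called. The 1 higher gene was TXNRD1, a thioredoxin reductase, at 4.69 and 2.02 against 0 to 0.429, which entered the test only through its brain level.

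Mitochondrial and catabolic genes shifted less. Of 67 listed genes of the respiratory chain 24 were measured and tested and 3 were lower (median log2 fold change -0.58 and 0.41 with TPM as deposited, with 0 lower when either brain sample was left out). ATP5O, a subunit of ATP synthase, stood at 288 and 491 normalized TPM in brain and 591 to 2144 elsewhere (adjusted p = 0.0261 from limma, 0.555 without brain p4 and 0.0563 without brain p6). Of 64 listed genes of peroxisomes and of fatty and amino acid breakdown 43 were measured, 42 tested, 5 lower and 1 higher (median -0.88 and 0.35 with TPM as deposited, with 0 lower without brain p4 and 2 without brain p6). ACADL and ACADM, acyl-CoA dehydrogenases that burn fatty acids, stood at 42.0 and 76.6 against 143 to 668 and at 70.2 and 74.2 against 123 to 608. Neither passed without brain p4 (adjusted p = 0.345 and 0.329 from limma), and ACADM did not pass without brain p6 (0.127). Of 34 listed genes of antigen presentation and interferon 10 were measured and 9 tested, and none was called (median -1.39, and -0.12 with TPM as deposited). In the list of epithelial junctions 22 of 41 genes were measured, 19 tested and 1 higher (median -0.69 and 0.41 with TPM as deposited). Of 36 listed leukocyte genes 10 were measured, 8 tested and 1 lower, VAV1, a signal protein of lymphocytes, at 7.41 and 12.8 against 20.5 to 114 (adjusted p = 0.0116 from limma, 0.363 without brain p4).

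Genes of fast skeletal muscle were found in both brain samples and were far higher in p6. Of 53 listed genes 27 were measured and 26 tested, and their median difference of p6 over p4 was 2.50 on the log2 scale, against -0.10 for all tested genes. The level in p6 was over 2 times that in p4 for 24 of the 26 and over 4 times for 22. MYH1, a fast myosin heavy chain, stood at 1103 normalized TPM in brain p4 and 14819 in brain p6, and MYH13, another myosin heavy chain, at 1063 and 11210. Reads of these near-identical myosin genes may be divided among them. KLHL41, a protein of the contractile lattice, stood at 95.8 in p4 and 688 in p6, and such differences between 2 single samples carry no test. The measured genes of the list together held 0.697% of all TPM in brain p4 and 7.07% in brain p6. In genes of at least 10 normalized TPM in both skin samples, the brain level was a median of 5.14% of that in the skin sample of the same animal in p4 (range 1.08% to 111%, 21 genes) and 21.4% in p6 (range 11.7% to 82.9%).

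Skin held the highest levels of these myosins, at 51603 normalized TPM for MYH1 and 30560 for MYH13 in skin p6. Of the 26 tested fast muscle genes 1 was called higher and none lower (median log2 fold change 1.0). The called fast muscle gene was RYR1, the calcium release channel of muscle that neurons also use, at 4.34 and 12.3 normalized TPM against 0 to 8.68 (fold change 1.99 ± 0.65 SE on the log2 scale, adjusted p = 0.0499 from limma, 0.179 without brain p4, 0.41 without brain p6 and 0.0707 with the animal as a block). That call was lost as well without gut p4, gut p5, heart p4, skin p4, any liver sample or any lung sample, with adjusted p from 0.0536 to 0.0682. With the skin and heart samples left out, a choice made after the data were seen, 16 of the 26 fast muscle genes were called higher in brain. So were 6 of 13 genes of slow and cardiac muscle, and 2047 of all 15741 genes tested. Leaving out the organs richest in muscle genes favours such calls, so they add no support of their own.

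Slow and cardiac muscle genes did not move together between the brain samples. Of 31 listed genes 14 were measured and 13 tested, and the median difference of p6 over p4 was 0.02 on the log2 scale. MYH7, a slow and cardiac myosin, stood at 347 and 1531 normalized TPM in brain p4 and p6, ANKRD1, a stress-responsive muscle protein, at 15.5 and 225, and SMPX, a small muscle protein, at 12.1 and 186. TNNI1, the slow troponin I picked after its values were seen, went the other way, at 51.3 and 11.6. The heart muscle genes TNNT2, MYL7 and NKX2-5, also picked after their values were seen, were low in both. TNNT2 stood at 7.81 and 9.70 against 16364 in heart p4. MYL7 stood at 0.759 and 0.786 against 571 and 123 in heart p4 and p6, and NKX2-5 at 1.32 and 0.169 against 333 and 229. By contrast, MYH7 and ANKRD1 in brain p6 stood at 15.1% and 18.1% of their level in heart p6. ATP2A2, the calcium pump of slow muscle that other tissues also use, was the 1 called gene of the list, at 166 and 136 against 33.7 to 95.5 (adjusted p = 0.0286 from limma, 0.432 without brain p4 and 0.111 without brain p6).

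**Figure D4:**
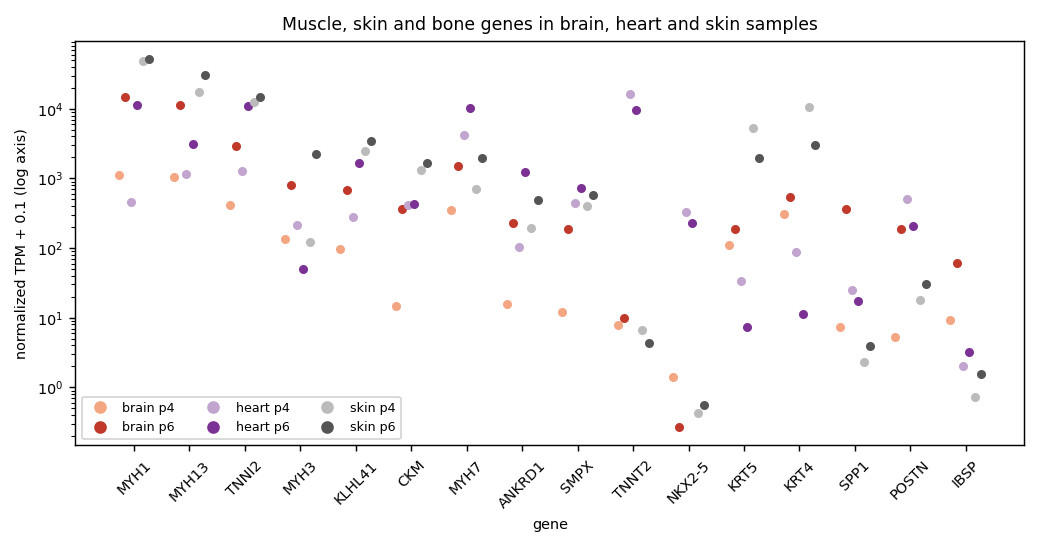
Normalized TPM plus 0.1, on a log axis, of 16 genes of muscle, skin and bone in the p4 and p6 samples of brain, heart and skin, 1 point per sample. Brain p6 lies above brain p4 for the fast myosins and troponin, for example 14819 against 1103 for MYH1, while the heart genes TNNT2 and NKX2-5 stay low in both brain samples.

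Some bone and connective tissue genes were far higher in brain p6 and others were higher in p4, and keratins were present in both. SPP1 and POSTN were named for their large difference between the brain samples. SPP1, the bone matrix protein osteopontin, stood at 7.18 normalized TPM in brain p4, 359 in brain p6 and 2.18 to 42.2 elsewhere. POSTN, a matrix protein of bone surfaces and fascia, stood at 5.17 and 188 against 0.373 to 514. IBSP, bone sialoprotein, stood at 9.28 and 61.7 against 0 to 3.90, and was called higher in brain (fold change 3.57 ± 0.58 SE on the log2 scale, adjusted p = 0.000526 from limma). Of 38 listed genes of connective tissue, cartilage and bone 23 were measured and tested and 5 were higher (median log2 fold change -0.10, median p6 over p4 0.67 on the log2 scale), and 6 of the 23 were over 4 times as high in p6 as in p4. SOX5 and ACAN, a factor and a proteoglycan of cartilage that are also found in brain, were called and higher in p4, at 46.6 and 24.2 and at 7.2 and 3.59. COL9A1 and FBN1, a cartilage collagen and a fibrillin named to complete the 5, stood at 4.22 and 5.84 and at 2.72 and 3.04. SOX5 was not called without brain p4 (adjusted p = 0.527 from limma), without brain p6 (0.084) or with the animal as a block (0.0555), and FBN1 was not called without brain p4 (0.0519). KRT5, a keratin of the basal epidermis, stood at 111 and 188 in brain, at 5233 and 1957 in skin, and KRT4, a keratin of surface epithelia, at 307 and 534 against 10452 and 3054 in skin. Over the 8 keratin and epidermis genes of at least 10 normalized TPM in both skin samples, the brain level was a median of 4.47% of skin in p4 and 20.5% in p6. Skin itself had less KRT5 and KRT4 in p6, and the median ratio of brain p6 to brain p4 was 1.33 over the 15 tested genes of the list, with 0 over 4, against 7.04 for the fast muscle list. No gene of the epidermis list was called among 15 tested. HBE1, a globin, stood at 13844 in brain p4 and 5482 in brain p6, and ALAS2, the first enzyme of heme synthesis in red cells, at 270 and 143. Of 21 listed blood cell genes 6 were measured and 5 tested, and of 32 listed liver plasma proteins 23 were measured and tested, and none of either was called (medians -2.30 and -3.08). The part of adhering muscle, skull, skin and blood in the difference between the 2 brain samples was not tested.

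**Figure D5:**
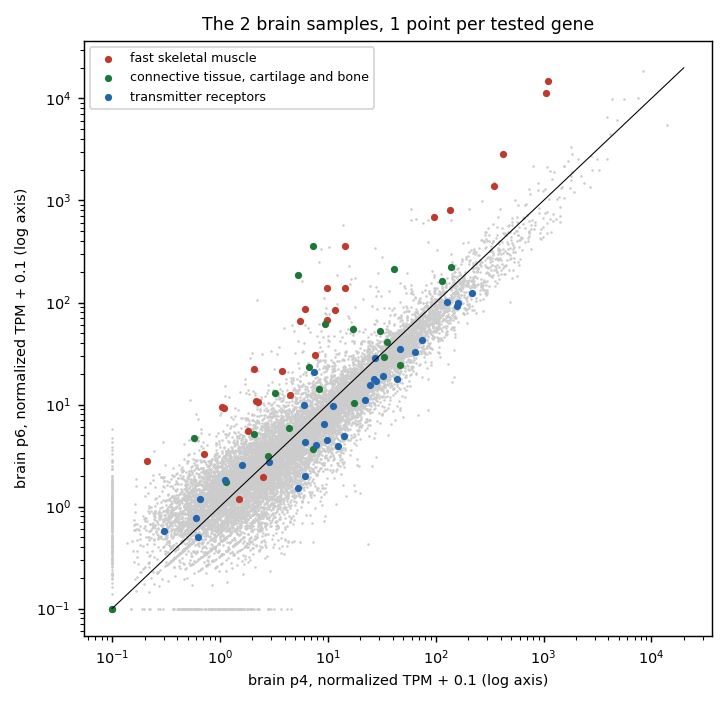
The 2 brain samples against each other, 1 point per tested gene, on log axes of normalized TPM plus 0.1, with the line of equality. Fast muscle genes (red) lie mostly above the line (24 of 26), with a median difference of 2.50 on the log2 scale. Genes of connective tissue, cartilage and bone (green) have a median of 0.67. Transmitter receptors (blue) lie mostly below the line, with a median of -0.61.

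Genes higher in brain lay mostly above in the p4 sample, and genes lower in brain mostly above in the p6 sample. Of the 1822 genes higher in brain, 1652 (90.7%) were higher in p4 than in p6, with a median difference of -0.72 on the log2 scale, against 57.3% of all tested genes. Of the 549 lower genes 470 (85.6%) were higher in p6, with a median of 0.43. The higher genes held 21.6% of all TPM in brain p4, 12.9% in brain p6 and 0.806% to 2.75% in the other samples, which follows in part from how they were chosen. In all, 119 tested genes were over 4 times as high in p6 as in p4 and 68 the reverse, counted on log2(normalized TPM + 1). For 103 of the 119 the highest other organ was skin or heart (86.6%, against 41.3% of all tested genes), and 1 of the 119 was called higher in brain. Of the 68 genes far higher in p4, 30 were called. CADM4, an adhesion molecule of neurons and glia, was one of these, at 38.4 and 6.31 normalized TPM, and TRIM2, a ubiquitin ligase of neurons, at 36.3 and 4.89, and both stayed above all other samples in either animal.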

How the data were processed

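RNA of 14 organ samples from 3 olms was sequenced. The authors trimmed reads with cutadapt and Trimmomatic, aligned them with BWA to a hybrid assembly reduced to its longest transcript per annotated gene, counted them with featureCounts, and deposited TPM values for 18924 assembled genes. How TPM were computed from the counts is not given in the sources used here.

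Values were scaled here by the median of ratios over 13067 genes above 0 in all 14 samples, and log2(value + 1) was tested for the 16317 genes that reached a TPM of 1 in 2 or more samples. Brain (n = 2) was compared with the other 12 samples with limma 3.58.1 in R 4.3.3 (trended prior variance, two-sided, Benjamini-Hochberg over all tested genes), and genes were called at an adjusted p under 0.05 and an absolute log2 fold change above 1. The fit was run on simulated data in which the other organs did not differ from each other. That run therefore does not check the fit against the real spread between organs. TPM keep no depth, so that precision rests on the spread between samples.

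The gene lists and named genes were chosen with earlier results of these data known. Named were the 12 strongest genes with no overlap in each direction, the 10 most abundant higher genes, the strongest called and most abundant members of each list, muscle genes by their level in brain p6, genes with the largest difference between the 2 brain samples, and a few markers. Others are marked as picked after their values were seen. Of several assembled genes under the same symbol, the most abundant over all samples was used. Same-numbered samples come from the same animal by their titles, and the fit with the animal as a block was an alternative. The animal of gut p5 and of heart p6 differs between title and the study's sample table, so both assignments were used. The other alternatives were the pseudocount, the filter, the scaling, a model of 6 organs, a robust variance and leaving out samples. A few genes are not reported here.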

Additional observations from a re-analysis of the deposited data

How the results depend on the processing

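Higher genes outnumbered lower genes under every alternative run, but the counts moved. With a pseudocount of 5, 1025 genes were higher and 346 lower, against 1822 and 549. With TPM as deposited, where all fold changes shifted by a median of 1.03 on the log2 scale, 6579 were higher and 27 lower, and the share of higher among called genes was 99.6% in place of 76.8%. Requiring the difference from each of the other 5 organs gave 943 and 154, and the mean of those organs gave 2228 and 1247. Leaving out 1 sample at a time gave 388 to 1851 higher and 13 to 599 lower genes, both lowest without brain p4. Without the p6 brain and p6 heart samples 288 were lower. Of the 388 genes called higher without brain p4, 384 were shared with the 1822. Without the skin and heart samples, an alternative chosen after seeing the data, 2047 were higher and 765 lower. With the animal of the title as replicate block 1774 were higher and 573 lower, and with the animals of the study's own listing 1763 and 561. Deviations of same-animal samples from their organ means correlated at 0.028 to 0.222 for brain p4, and those of samples from other animals at -0.222 to 0.069. In organs with 2 samples the 2 deviations mirror each other by construction, so that their signs are opposite. Under the title block FBP1, RYR1 and SOX5 were no longer called among the 93 reported called genes, and under the other block ATP2A2, HOXC4, RYR1 and SOX5. HOXC4 turned to 0.14 with TPM as deposited and FTL to 0.087 after quantile normalization. Of the 93, 51 kept their direction and call under every alternative that tested them. The 51 include ARC, CBLN4, CHRNB2, CNTNAP5, HTR1B, KISS1R and UNC80, which could not be tested where a brain sample was left out. Their calls were thus not checked against the alternatives that changed most other calls. With 2 brain samples and unknown depth, low genes are the least certain.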
